A study of Mus musculus with 2 samples.

Results

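The complement genes *C1qa*, *C1qb*, *C1qc*, *C3*, *Cfb* and *Cfp* were followed in RAW264.7 cells, a macrophage line, on the arrays of a vehicle-treated and an IR-61-treated culture. These 6 genes were chosen by name, with earlier results of these data known, and all of their probes were taken. They held 7 of the 27234 probes that could be named, among 20655 genes with a value on both arrays. RAW264.7 is an established line derived from an Abelson murine leukemia virus-induced tumor of an adult male BALB/c mouse. By this label both cultures share a single transformed genotype, and the cell type is set beside marker genes below. One culture received vehicle control for 24 h and the other received IR-61, a lipophilic cationic heptamethine cyanine dye that accumulates in mitochondria, also for 24 h. The dose given with the study's heat map was 10 μM, and both cultures grew in medium with heat-inactivated fetal bovine serum. The study asked how IR-61 acts on the activation of macrophages.

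Complement is a cascade of serum proteins that marks particles for uptake and lyses membranes. C1q, built from the chains encoded by *C1qa*, *C1qb* and *C1qc*, recognizes antibody complexes, dying cells and other surfaces, and so opens the classical pathway. C3 is the central component onto which all pathways converge, and its fragments tag surfaces for phagocytosis. Factor B (*Cfb*) supplies the protease of the alternative pathway convertase, and properdin (*Cfp*) stabilizes that convertase. Much of the circulating C3 and factor B comes from the liver, whereas macrophages are a main source of C1q and also make properdin, C3 and factor B. In macrophages *C3* and *Cfb* are known as genes that inflammatory stimuli raise.

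Promoter sequences are shown for the C1q chains and for *C3*, because these genes differed in opposite directions on the arrays. The RefSeq promoter table, of build GRCm38.p6, held 4 of the 6 genes, *C1qb*, *C1qc*, *C3* and *Cfp*. *C1qa*, *C1qb* and *C1qc* lie side by side on chromosome 4, with 0 other protein-coding genes between them. Each line gives the 150 bases before the annotated start, read 5′ to 3′ on the strand of the gene, which is the minus strand for all of them. Capitals mark matches, on either strand, to a Maf half-site (TGCTGA), the PU.1 core (GAGGAA), a κB motif (GGGA and CC with 4 free bases between them), an interferon-stimulated element (GAAA repeated after 2 free bases) or a C/EBP motif (TTGCNNAA).
C1qb, chr4:136886201-136886350: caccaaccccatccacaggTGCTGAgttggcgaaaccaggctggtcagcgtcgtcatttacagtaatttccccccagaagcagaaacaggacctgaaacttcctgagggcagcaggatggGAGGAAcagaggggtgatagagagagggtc
C1qc, chr4:136892915-136893064: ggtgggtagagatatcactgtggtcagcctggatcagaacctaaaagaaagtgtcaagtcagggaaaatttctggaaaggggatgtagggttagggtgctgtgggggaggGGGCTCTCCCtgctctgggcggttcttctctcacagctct
C3, chr17:57228137-57228286: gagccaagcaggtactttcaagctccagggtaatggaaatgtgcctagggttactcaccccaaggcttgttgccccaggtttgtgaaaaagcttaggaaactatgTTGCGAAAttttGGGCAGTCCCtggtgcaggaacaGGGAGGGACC
The *C1qb* window held a Maf half-site 131 to 126 bases before the start and a PU.1 core 30 to 25 bases before it. The *C1qc* window held a κB motif on the opposite strand, 40 to 31 bases before the start. The *C3* window held a C/EBP motif 45 to 38 bases before the start. Its κB motifs lay 33 to 24 bases before the start, on the opposite strand, and 10 to 1 bases before it. The *Cfp* window held none of these letters. Of 32851 windows of the same length, 10.1% held the Maf half-site, 14.5% the PU.1 core, 11.9% the κB motif, 5.46% the C/EBP motif and 1.59% the interferon-stimulated element. A match is a description of these letters and not of a bound site.

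RNA of each culture was labelled with Cy3 and hybridized to its own Agilent mouse array, so each condition had 1 array, and no test between the conditions was possible. On each array 43020 spots were not controls, and the share of probes well above background was 77.6% on the vehicle array and 81.2% on the other. The IR-61 array was brighter as a whole. Its 75th percentile of log2 signal was 10.79, against 10.30 for vehicle. The scaled values below are log2 signals minus the 75th percentile of their own array, and each difference is the IR-61 value less the vehicle value. Without scaling 0.488 is added to every difference, so that a negative difference smaller than this has the opposite sign there. For the 16885 genes that both arrays read well above background the median difference was 0.10, and 61.2% of the genes lay above 0. Error could be estimated only from repeated spots, using the probes well above background among the 399 printed 10 times on each array. For a probe with 1 bright spot on each array (log2 signal over 10) it gives a difference an SD of 0.094. This error leaves out the spread between cultures, and precision is limited by there being 1 array of each. The positions of the probes within their transcripts are not given in the sources used here.

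All 7 probes of the complement genes were well above background on both arrays and none was saturated. The C1q chains were higher in the IR-61-treated cells, *C3* and *Cfb* were lower, and *Cfp* was close to the level of all genes. The median difference of the 6 genes was 0.27, against 0.10 for all measured genes. None of the 6 reached a 2-fold difference, which 3.39% of all measured genes did, 1.39% lower and 2% higher (235 and 337 genes). A 3-fold difference was reached by 0.669% of all measured genes, 0.373% lower and 0.296% higher. The split of the genes past 2-fold depended on the scaling. Of them 41.1% were lower here and 54.3% when the arrays were scaled to their medians (295 lower and 248 higher).

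**Figure D1:**
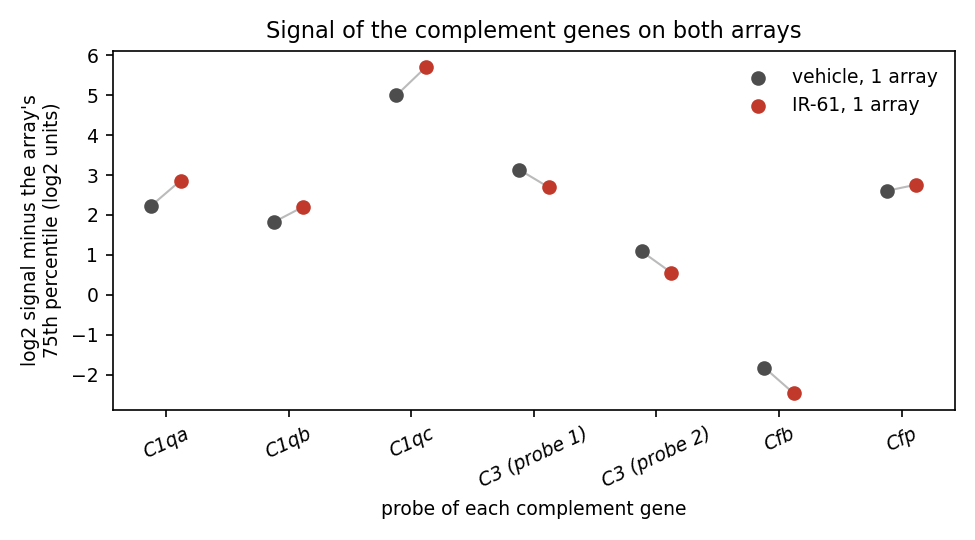
Scaled log2 signal (vertical axis, log2 units above the 75th percentile of the array) of the 7 probes of the complement genes with vehicle (grey) and IR-61 (red), 1 array each, with a line joining the values of a probe. The 3 C1q probes and that of *Cfp* were higher with IR-61, and both probes of *C3* and the probe of *Cfb* were lower.

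*C1qc*, which encodes the C chain of C1q, had a signal of 40283 with vehicle and 92082 with IR-61. Its scaled log2 signal was 4.99 ± 0.04 with vehicle and 5.70 ± 0.08 with IR-61 (mean ± SD between spots, 10 spots each). The spots lay between 4.90 and 5.04 with vehicle and between 5.63 and 5.82 with IR-61, so the spots of the arrays did not overlap. The log2 difference was 0.70, equal to a 1.63-fold higher signal, with an SD expected from the spread between spots of 0.030.

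*C1qa*, for the A chain, had a signal of 5934 with vehicle and 12870 with IR-61. On the scaled log2 scale these were 2.23 and 2.86, a difference of 0.63 or 1.55-fold higher. *C1qb*, for the B chain, had a signal of 4469.7 with vehicle and 8177 with IR-61. Its scaled log2 signal was 1.82 and 2.21, a difference of 0.38 or 1.30-fold higher. Both genes were read by 1 spot on each array, and both differences exceeded the SD of 0.094 that single bright spots give, *C1qb* by the smaller margin. The differences of *C1qa* and *C1qc* were 0.08 apart, within the expected SD of 0.099. That of *C1qb* was 0.32 below that of *C1qc*, with the same expected SD of 0.099, and 0.25 below that of *C1qa*, with an expected SD of 0.134.

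*C3* was the member with more than 1 probe. Its brighter probe had a signal of 11098 with vehicle and 11481 with IR-61, which is nearly level before the brighter IR-61 array is taken into account. After scaling it was 3.13 ± 0.07 with vehicle and 2.70 ± 0.09 with IR-61 (mean ± SD between spots, 10 spots each). The highest scaled spot with IR-61 was 2.80 and all spots with vehicle lay above it, whereas before scaling the spots overlapped, at 10085 to 11720 with vehicle and 10383 to 12375 with IR-61. The difference was −0.44, a 1.36-fold lower signal with an expected SD of 0.030, and it was 0.05 without scaling, so the direction of *C3* holds only relative to the array. The dimmer probe of *C3*, read by 1 spot on each array, had signals of 2687 and 2614 and scaled log2 signals of 1.09 and 0.56. Its difference was −0.53 with an expected SD of 0.094, in the same direction as the brighter probe.

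**Figure D2:**
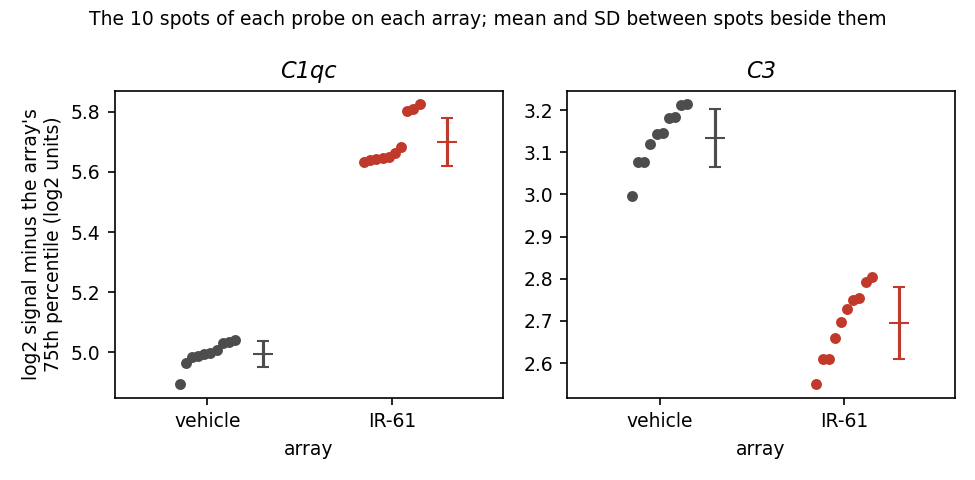
Scaled log2 signal (vertical axes, log2 units above the 75th percentile of the array, drawn on separate ranges that do not start at 0) of each of the 10 spots of *C1qc* and of the brighter *C3* probe, in order of value, with the mean and SD between spots beside them. All spots of *C1qc* were higher on the IR-61 array than on the vehicle array, and all spots of *C3* were lower after scaling.

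*Cfb*, for factor B, had the dimmest probe of the 6 genes, with a signal of 359 with vehicle and 322 with IR-61. The lowest signal among probes well above background was 12.8 with vehicle, far below these. Its scaled log2 signal was −1.82 and −2.46, a difference of −0.65 or 1.56-fold lower. At this level a single spot gives an expected SD of 0.229, so the difference of *Cfb* is the least precise of the 6. Without scaling the difference of *Cfb* was −0.16, within this SD. *Cfp*, for properdin, had a signal of 7694 with vehicle and 12005 with IR-61. Its scaled log2 signal was 2.61 and 2.76, and the difference of 0.15 was 0.05 above the median of all genes, within the expected SD of 0.094.

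Differences between 2 genes on the same pair of arrays do not move with a constant scaling factor. *C1qc* and *C3*, the genes printed 10 times, differed from each other by 1.14 on the log2 scale, with an expected SD of 0.042. In other words the ratio of *C1qc* to *C3* signal was 2.21-fold higher on the IR-61 array. The mean difference of the 3 C1q genes was 0.57 and that of *C3* and *Cfb* was −0.54. They were 1.11 apart, with an expected SD of 0.124, and between 1.07 and 1.14 apart under the 13 other settings tried. This grouping was made after the values were seen. *C3* and *Cfb* were 0.21 apart, within the expected SD of 0.231.

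Ranked among the 16885 measured genes, *C1qc* took place 1032 from the largest difference upwards and *C1qa* place 1380, with 6.11% and 8.17% of the genes above them. *C1qb* had 21.0% of the genes above it and *Cfp* had 43.8%. From the other end, *Cfb* took place 774 from the largest difference downwards, with 4.58% of the genes below it, and *C3* place 1619, with 9.58% below it. Among the 7049 genes with a log2 signal over 10 on both arrays, which are read with less error, 3.89% lay above *C1qc*, 5.69% above *C1qa* and 18.8% above *C1qb*, and 8.14% lay below *C3*. The complement genes thus lay inside the body of the distribution, the C1q genes on its upper and *C3* and *Cfb* on its lower side. With 2 arrays a likeness of pattern between genes is the difference itself, so these places stand for it.

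**Figure D3:**
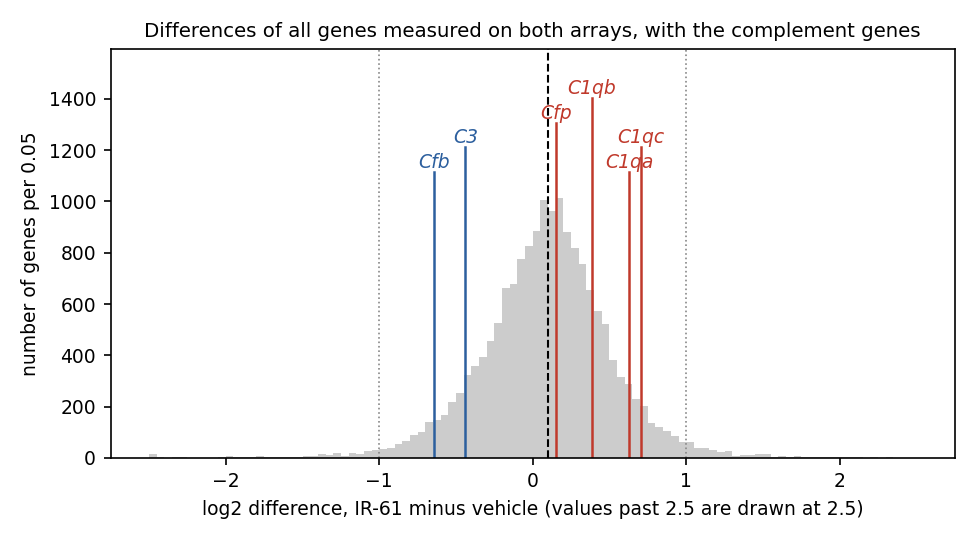
Number of genes (vertical axis, per 0.05) by log2 difference (horizontal axis, IR-61 minus vehicle) for the 16885 genes measured on both arrays, with the 6 complement genes as coloured lines. The dashed line is the median of 0.10 and the dotted lines are 2-fold. All 6 complement genes lay between the dotted lines.

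The remaining genes of the cascade were taken from lists of initiating components, alternative and terminal components, regulators and receptors. Of 15 genes that start the classical and lectin pathways 13 were measured on both arrays, 9 with a difference below 0 and 4 above. Their median was −0.22, and 0.27 without scaling. Over all measured genes 61.2% lay above 0, the median was 0.10 and 3.39% were past 2-fold. *Fcna*, for ficolin A, a recognition protein of the lectin pathway, was the only 1 of the 13 past 2-fold. Its signal was 1998 with vehicle and 1360 with IR-61, and its difference was −1.04 with an expected SD of 0.094 and past 2-fold under 11 of the 13 other settings. The largest difference upwards was that of *Colec11*, for a collectin of the same pathway, at 0.58, with dim signals of 26.5 and 55.4 and an expected SD of 0.456. The proteases that form the C1 complex with C1q, named here after their values were seen, were not higher like the C1q chains once scaled. *C1ra* had a difference of 0.08 on its brighter and −0.68 on its dimmer probe, *C1s1* of −0.92 and *C1s2* of −0.20 on its brighter probe. Without scaling the brighter probes of *C1ra* and *C1s2* stood at 0.57 and 0.29, and *C1s1* at −0.43. *C1ra* and *C1rb*, and *C1s1* and *C1s2*, are close paralogs, and their probes may not tell them apart. *C4b*, the classical component after C1, had a difference of −0.16, and *C2*, which lies next to *Cfb* in the genome and encodes its classical counterpart, of 0.11 with an expected SD of 0.229. *C4a* had no matched probe and *Mbl1* was not above background on either array.

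Among 8 alternative and terminal components 5 were measured on both arrays, 3 below and 2 above 0, with a median of −0.01. The brightest of the 5 with vehicle was *C8g*, at a log2 signal of 8.94, and none was past 2-fold. Among these 5, *C6* had the largest difference upwards, 0.56 with an expected SD of 0.376, and *Hc*, the gene of C5, the largest downwards, −0.11 with an expected SD of 0.229. *C8a* was well above background with IR-61 alone and was at least 2.07-fold higher, from a signal of 11.5 to 37.1. Its other probe, with signals of 6.58 and 13.8, was not above background on either array. Over all genes 741 had a bound upwards of any size and 145 downwards, and the IR-61 array was the brighter. No count over all genes is given for bounds past 2-fold. *Cfd*, for factor D, was at least 1.02-fold higher and had signals of 5.25 and 18.2.

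Among the regulators 5 of 7 measured genes were above 0, with a median of 0.19, against 61.2% of all genes above 0 and a median of 0.10. *C4bp*, for the C4b-binding protein, which restrains the classical pathway, had the largest difference upwards among those measured on both arrays, 0.36 with signals of 181 and 325 and an expected SD of 0.229. The largest difference downwards was that of *Cd55b*, a paralog of the decay-accelerating factor *Cd55*, at −0.73, but its dimmer probe gave 0.14, with an expected SD of 0.229 for each. *Cfi* and *Cd59b* had bounds of at least 1.53-fold and 1.22-fold higher, and *Cd46* and *Vtn* were not above background on either array.

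All 11 receptor genes were measured on both arrays, with a median of 0.10, equal to that of all genes. Of the 11, 7 lay above and 4 below 0, against 61.2% of all genes above 0. Past 2-fold lay 1 upwards and 1 downwards, against 2% and 1.39% of all genes. The largest difference upwards was that of *Vsig4*, the macrophage receptor CRIg that binds C3 fragments on particles. Its signal was 3137 with vehicle and 9669 with IR-61, and its difference of 1.14 (expected SD 0.094) was past 2-fold under each of the 13 other settings. *Itgb2* had the largest difference downwards. It encodes the β2 chain shared by complement receptors 3 and 4, and its signal was 19978 with vehicle and 11454 with IR-61. The difference was −1.29 with an expected SD of 0.094, and −0.80 without scaling, the only one of the 13 other settings in which it was not past 2-fold. *Itgam*, the α chain that pairs with it in complement receptor 3, had a signal of 20486 with vehicle and 45218 with IR-61, a difference of 0.65. Its other probes gave 0.41 and 0.12, with an expected SD of 0.229 each. Under the 13 other settings *Itgam* lay between 0.39 and 1.14 and *Itgb2* between −1.38 and −0.80, so the chains of complement receptor 3 differed in opposite directions in each. *Itgax*, the α chain of complement receptor 4, had a difference of 0.10, *C3ar1*, the receptor of the C3a fragment, of 0.27, and *C5ar1*, the receptor of C5a, of −0.24.

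**Figure D4:**
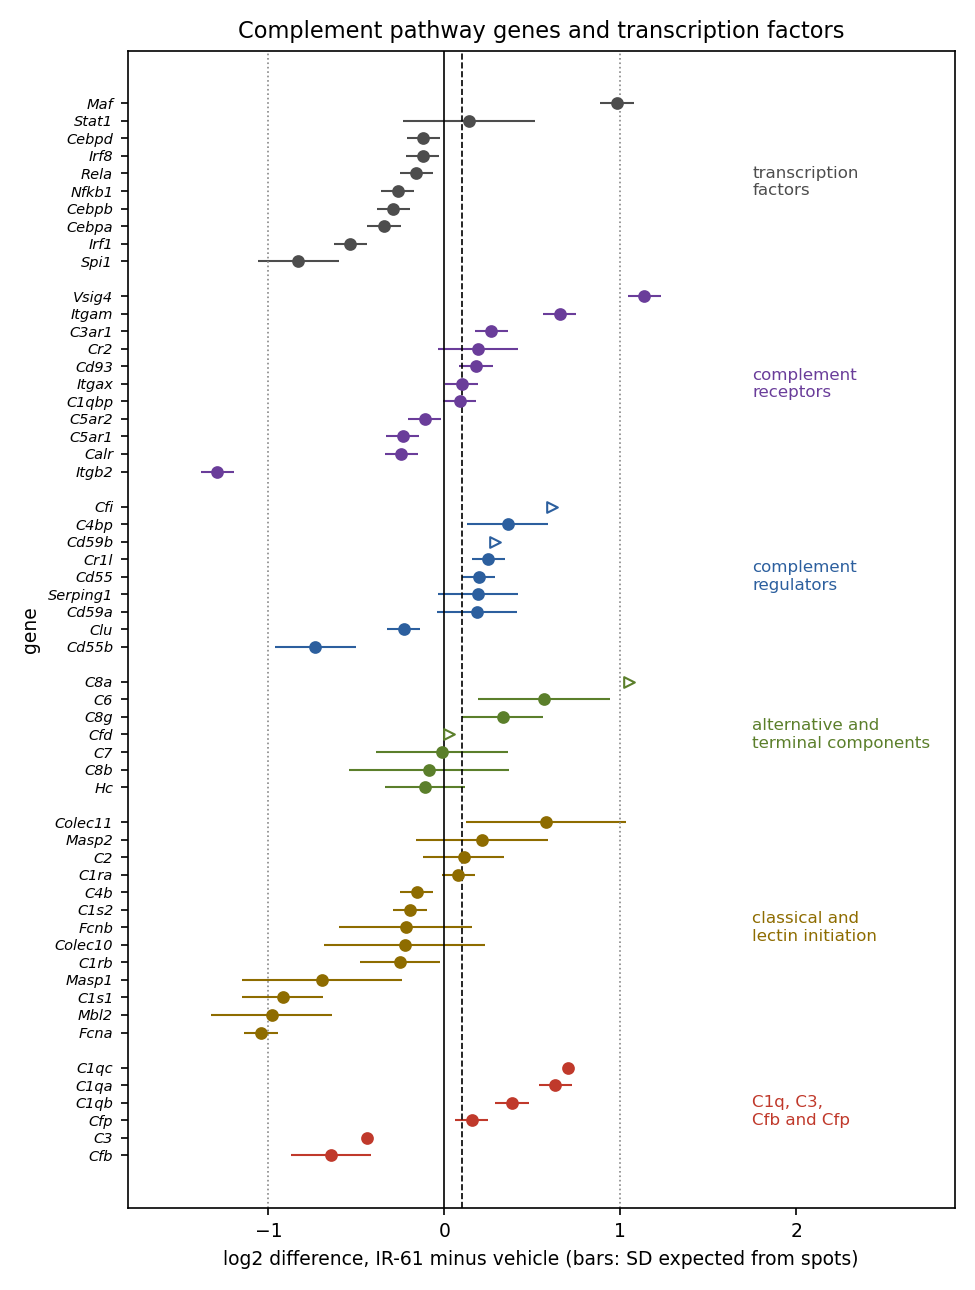
Log2 difference (horizontal axis, IR-61 minus vehicle) of the listed complement genes and of transcription factors known at complement genes, grouped by role, with the SD expected from spots as bars. Open triangles are lower bounds of genes well above background with IR-61 alone, the dashed line is the median of all genes and the dotted lines are 2-fold. *Vsig4* and the bound of *C8a* lay past 2-fold on the upper side, *Itgb2* and *Fcna* on the lower.

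Of 10 transcription factors known at complement genes 2 had a difference above 0 and 8 below, with a median of −0.21. Of all measured genes 61.2% were above 0, and the median was 0.10. None of the 10 was past 2-fold on the probe used, which 3.39% of all measured genes were. *Nfkb1* had −0.27 on the brighter probe, the one used. Its dimmer probe, with signals of 313 and 185, gave −1.25 with an expected SD of 0.229, and −0.76 without scaling. *Maf*, for a bZIP factor of macrophages, had the largest difference upwards. Its signal was 7007 with vehicle and 19398 with IR-61, a difference of 0.98 with an expected SD of 0.094, and it was past 2-fold under 1 of the 13 other settings, that without scaling. On the probes used, the largest difference downwards was that of *Spi1*, which encodes PU.1, at −0.83 with an expected SD of 0.229. *Irf1*, which responds to interferon, had a difference of −0.54. *Cebpb*, known as an activator of *C3*, had a difference of −0.29. The median without scaling was 0.27, so the sign of this median holds only relative to the array.

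The cell type was checked against marker genes, and part of what they showed bears on the complement values. Of 8 macrophage markers 7 had a probe and all 7 were well above background on both arrays, with a summed scaled signal of 164 with vehicle and 215 with IR-61. Of these 7, 3 had a difference above 0 and 4 below, with a median of −0.016. *Adgre1*, the gene of F4/80, had the largest, 1.03, and *Fcgr3*, an Fc receptor gene, the lowest, −0.60. *Csf1r* had 0.06 on its brightest probe and −0.12 and −0.64 on its others. Hepatocyte markers were near background, with *Alb* at signals of 18.2 and 32.5, *Apoa1* not above background on either array and a summed scaled signal of 0.0343 and 0.0408. All 4 fibroblast markers, in contrast, were well above background on both arrays, with a summed scaled signal of 47.1 with vehicle and 59.0 with IR-61. *Col1a1* had signals of 27148 and 58670 and a difference of 0.62, and *Dcn* signals of 16543 and 21738 and a difference of −0.09. A further 9 fibroblast genes, chosen after this was seen, were all well above background on both arrays. They had a summed scaled signal of 40.3 and 50.4, most of it from *Fn1*, with signals of 41978 and 74019. The others were dimmer, down to *Fap* with signals of 38.3 and 67.1. The median difference of the 9 genes was 0.41, from −0.34 for *Col3a1* to 1.59 for *Postn*. Whether the fibroblast transcripts came from the labelled line or from other cells was not tested. Fibroblasts also express *C3*, *C4b* and the C1r and C1s genes, and the part of such transcripts in the differences was not tested. Fewer cells of a type and less RNA per cell cannot be told apart in these cultures.

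The markers of other cell types were lower or mixed. T cell markers had a summed scaled signal of 0.561 with vehicle and 0.555 with IR-61, with *Cd3g* not above background on either array. B cell markers had 0.459 and 0.276, and dendritic cell markers 0.296 and 0.288 with *Xcr1* not above background on either array. Neutrophil markers had 3.90 and 5.15, nearly all of it from *S100a8*, with signals of 4879 and 9020.

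Under the 13 other settings tried, *C1qa*, *C1qb*, *C1qc* and *Cfp* were above 0 and *Cfb* was below 0 in each. *C3* was below 0 in all but that without scaling, where *Cfb*, at −0.16, lay within its expected SD of 0.229. Settings that change only the fold limit, the filter on dim probes or the averaging over probes cannot move those of these genes with 1 probe. The deposited log2 values also lay close to quantile normalization. Counts of settings, here and above, are therefore not counts of independent checks. Relative to the median of all measured genes of the same setting (0.59 without scaling), a constant scaling factor cancels. Settings that differ only by such a factor give the same relative values, so the ranges below come from the others. The relative difference of *C1qc* was between 0.60 and 0.71, of *C1qa* between 0.50 and 0.56, of *C3* between −0.56 and −0.51 and of *Cfb* between −0.75 and −0.52. For *C1qb* it was between 0.13, with a trend over rows and columns removed, and 0.51, with another background correction, and for *Cfp* between 0.01 and 0.11.

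**Figure D5:**
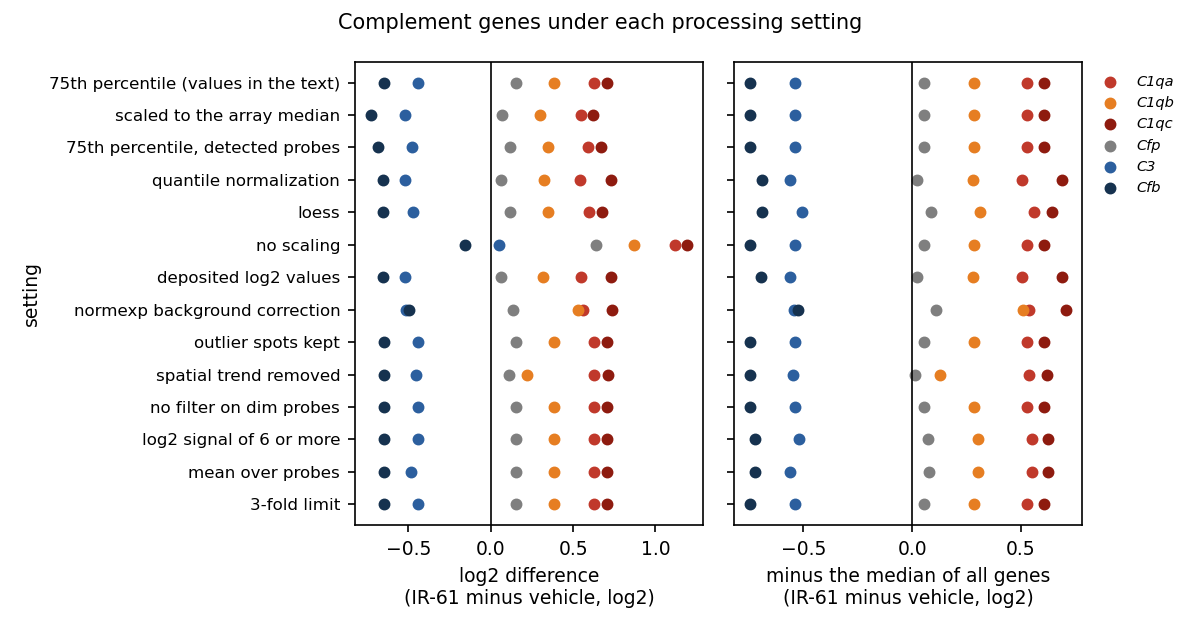
Log2 difference of the 6 complement genes (left, horizontal axis) and the same minus the median of all measured genes (right, horizontal axis) under each processing setting (vertical axis). Without scaling all values on the left moved upwards together, and on the right *C3* and *Cfb* lay below 0 and the other 4 genes above 0 in each setting. A constant scaling factor cancels on the right.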

How the data were processed

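The members and gene lists were chosen with earlier results of these data known, so no pattern here is independent of them. The authors scanned 1 Cy3 array per condition and deposited the intensity of each spot, background-subtracted and detrended by Agilent Feature Extraction, version 11.0.1.1 per the file headers and 11.0.0.1 per the submitters' processing notes. They also deposited a table of log2 values, whose columns share their quartiles and follow the log2 intensities of their arrays (Pearson r over all probes 0.9995 on the vehicle and 0.9988 on the IR-61 array). How that table was made, its scale and its centring are not given in the sources used here.

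Control spots and outlier spots (124 with vehicle, 139 with IR-61) were left out. Remaining spots were averaged per probe on the log2 scale, then centred on the 75th percentile of their array. Of 39429 probes 27234 were named through RefSeq accessions of a GRCm38.p6 gene table, used for names, neighbours and promoters, since the array design gives build mm9. A gene took its brightest unsaturated probe. A probe well above background on 1 array gave a bound, computed with the dim side raised, where needed, to that array's lowest signal well above background. Genes named beside the members were those past 2-fold and the largest fall and rise of each list, and the other listed genes named were chosen after their values were seen. Some genes of the lists are not reported here and were left out of the counts and medians of their lists. The steps were tested on simulated arrays. Python 3.11.15, numpy 2.4.6, pandas 2.3.3, matplotlib 3.10.9, R 4.3.3 and limma 3.58.1 were used.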

Additional observations from a re-analysis of the deposited data

How the results depend on the processing

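No paired analysis was possible because only 1 culture per treatment was hybridized, and for the same reason no array could be left out. A value was taken as unmoved within the SD of a difference between single spots, and a count within 1.5 times. Normexp, with an offset of 50, used the median signal, because the files used here hold no mean signal. Without scaling the differences were 1.12 for *C1qa*, 0.87 for *C1qb*, 1.19 for *C1qc*, 0.0489 for *C3*, −0.16 for *Cfb* and 0.64 for *Cfp*, with a median of 0.76 and 2 of the 6 genes past 2-fold upwards. The list medians were then 0.27 for initiating components, 0.48 for alternative and terminal components, 0.68 for regulators, 0.59 for receptors and 0.27 for transcription factors, with 72 genes lower and 2156 higher by 2-fold, which follows from the brighter IR-61 array. *C1qb* moved to 0.53 with normexp and to 0.22 with the spatial trend removed, which took the median of the 6 genes to 0.17. For these shifts the cause was not tested. The median of initiating components was −0.34 with quantile normalization, −0.38 with loess and −0.34 with the deposited log2 values. That of alternative and terminal components was −0.13, −0.16 and −0.13 under the same settings, −0.13 with normexp, 0.45 with no filter on dim probes and 0.11 with a log2 signal of at least 6 on both arrays. Over all genes, 136 were lower and 125 higher with normexp, 440 and 923 with no filter, and 63 and 50 past 3-fold. With a log2 signal of at least 6 on both arrays 183 were higher. All 6 complement genes were well above background, so depth of signal limits *Cfb* most.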
